A study of Bos taurus with 6 samples.

Results

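The 9 genes described here encode proteins that bind or carry retinoids (CRABP1, CRABP2 and RBP4), make retinoic acid (ALDH1A1 and ALDH1A2), clear it (CYP26B1) or act as its receptors (RARA, RARB and RARG). They were taken by gene name, and each had 1 row in a table of 17663 genes. They had been selected on their FT and WT values in these same libraries, so the values of the 9 genes are given as a description. Whether a test called them is listed below, and nothing is read from it. The cells were bovine fetal fibroblasts (bEFs), grown in primary culture from fetuses of 50 to 60 days. The starting material was soft tissue of the trunk, without viscera. The FT group was 3 fetuses carrying the fat-1 transgene, which encodes a fatty acid desaturase of Caenorhabditis elegans, and the WT group was 3 wild-type fetuses of Luxi cattle. Poly(A) RNA of each fetus was sequenced as 1 library, and the comparison asks how RNA levels differ between FT and WT cells. The promoter of the transgene, the breed of the FT fetuses and whether they shared a founder are not given in the sources used here. The transgene itself and genes outside chromosomes 1 to 29 were not analysed here.

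Retinol, or vitamin A, travels in blood on RBP4 together with transthyretin, and cells that take it up oxidise it to retinal and then to retinoic acid. Retinoic acid binds CRABP proteins in the cytoplasm and RAR receptors in the nucleus, which sit on DNA as pairs with RXR receptors and switch target genes, while CYP26 enzymes remove it. In the embryo and fetus the pathway is known for patterning the limbs, the skin and the main body axis, and mesenchymal cells are both a source and a target of retinoic acid.

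Each gene had 1 raw count per library and 1 FPKM value, which is fragments per kilobase of gene scaled to the library total. Total counts were 63366834, 48167642 and 54204446 in FT_1, FT_2 and FT_3, and 69777641, 51310741 and 54271927 in WT_1, WT_2 and WT_3. Counts and FPKM of a gene stood in a ratio that was constant apart from 1 scale factor per library, with a median coefficient of variation of 0.306% over 10094 genes. They are therefore the same measurement on different scales. Levels of different genes are compared only in FPKM, which is per length.

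FT_1 stood apart from the other FT libraries. The root mean square difference in log2 level over genes was 0.835 between FT_1 and FT_2 and 0.842 between FT_1 and FT_3. It was 0.206 between FT_2 and FT_3, and 0.199 to 0.248 between WT libraries. With 1 added to each FPKM, 1472 (10.9%) of 13482 genes with enough counts lay over 2-fold from the mean of FT_2 and FT_3 in FT_1, and 32 (0.237%) differed over 2-fold between FT_2 and FT_3. Of the 9 retinoid genes, 5 lay over 2-fold away in FT_1 on this scale, and 7 with nothing added, when CRABP1 (2.002-fold) and the near-absent ALDH1A2 also passed. Most fold changes and counts of calls are given with and without this library.

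Cell type markers moved with FT_1. Of 7 epithelial markers, 7 were highest in FT_1, and their summed FPKM was 569, 15.2 and 13.8 in FT_1, FT_2 and FT_3, against 10.1, 7.98 and 13.9 in WT_1, WT_2 and WT_3. For 5 of the 7, all of them keratin genes, all FT libraries lay above all WT libraries (21.8% of all tested genes did so). The basal keratin gene KRT5 was the most abundant of them in FT_1 only, at 172, 2.57 and 1.63 FPKM in FT_1, FT_2 and FT_3. KRT5 and 4 other epithelial markers were listed at 0 in all 3 WT libraries, and the defining surface marker EPCAM was 0.57 FPKM in FT_1 and listed at 0 in the other 5. CDH1, which encodes E-cadherin, made up most of the WT sum and was above KRT5 in FT_2 and FT_3, at 7.11 and 8.41 FPKM.

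Fibroblast markers were present in all 6 libraries. Their summed FPKM was 6776, 16989 and 16716 in FT_1, FT_2 and FT_3, and 17743, 17210 and 17289 in WT_1, WT_2 and WT_3. Of 9 fibroblast markers, 7 were lowest and 2 highest in FT_1. VIM, the vimentin gene and the most abundant of them over the 6 libraries together, had 1244, 3850 and 4171 FPKM in FT cells. In WT cells it had 7891, 8178 and 7312. DCN was above VIM in FT_1 and FT_2, at 1803 and 4092 FPKM. The listed fibroblast markers were thus expressed in each library, at a lower summed level in FT_1. Whether all cells of a culture were fibroblasts was not tested.

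Smooth muscle markers separated the groups. For 5 of 6 all FT libraries lay above all WT libraries (21.8% of all tested genes did so), with summed FPKM of 2516, 3815 and 3670 in FT cells and 1108, 1088 and 1216 in WT cells. ACTA2, a smooth muscle actin gene also used by activated fibroblasts, was the most abundant of these, at 1372, 2421 and 2378 FPKM in FT cells and 550, 503 and 627 in WT cells. The 5 mesothelial markers with a row, of 7 listed, summed to 206, 46.0 and 46.9 FPKM in FT cells and 2.66, 3.70 and 3.54 in WT cells, most of it from MSLN (mesothelin), at 199, 44.9 and 46.2 FPKM in FT cells and 2.08 to 3.18 in WT cells. MSLN was the only one of the 5 with all FT libraries above all WT libraries. WT1 was the other way, listed at 0 in all FT libraries and at 0.03 to 0.05 FPKM in WT cells, and the groups overlapped in the remaining 3.

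The other marker lists were low. Skeletal muscle markers summed to 5.81, 4.63 and 3.78 FPKM in FT cells and 1.22 to 1.96 in WT cells, but their genes moved apart. DES made up most of the FT sum and was at most 0.07 FPKM in WT cells, whereas MYF5, a factor of the muscle lineage, had 0.03, 0.59 and 0.61 FPKM in FT cells and 1.06, 1.31 and 1.93 in WT cells. Endothelial markers summed to 7.06 FPKM in FT_1, 0.86 to 1 in the other FT libraries and 1.99 to 2.93 in WT cells. ERG alone gave 6.03 FPKM of the FT_1 sum, while PECAM1, VWF and KDR were lower in each FT library than in any WT library. Blood and macrophage markers summed to 2.24 to 3.66 FPKM in FT cells and 6.91 to 8.18 in WT cells, lower in each FT library than in any WT library. CD14, the most abundant, had 3.29, 3.05 and 2.01 FPKM in FT cells and 4.72, 3.78 and 5.09 in WT cells. More of the gap came from CD163, a macrophage receptor gene, with 0.18, 0 and 0.03 FPKM in FT cells and 3.14, 2.9 and 2.69 in WT cells. Those of Schwann and neural crest cells summed to 13.1, 5.91 and 4.31 FPKM in FT cells and 9.14 to 9.95 in WT cells, led by S100B. Chondrocyte markers summed to 2.34 FPKM in FT_1, of which SOX9 gave 2.19, and to at most 1.17 elsewhere, with more ACAN than SOX9 in each WT library. Adipocyte markers summed to 3.46 to 6.52 FPKM in all 6 libraries, and LEP and CIDEC among them differed in opposite directions. LEP (leptin) had 4.91 and 4.45 FPKM in FT_2 and FT_3, 0.03 in FT_1 and at most 0.09 in WT cells, while CIDEC, a lipid droplet gene, had 0.08 FPKM in FT_1, was listed at 0 in FT_2 and FT_3 and had 2.57, 3.2 and 2.27 in WT cells. The single markers named here other than the most abundant of each list were named after their values were seen. The part of these cell type markers in the results that follow was not tested, and in bulk samples fewer cells of a type and less RNA per cell cannot be told apart.

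edgeR's quasi-likelihood test called 2714 genes higher (20.1%) and 2547 lower (18.9%) in FT cells among 13482 tested, at a Benjamini-Hochberg adjusted p under 0.05, or 39.0% in either direction. Of the 9 retinoid genes, 8 had enough counts for this fit. CRABP1, ALDH1A1 and RARA were among the genes called higher and RBP4 among those called lower, while CRABP2, CYP26B1, RARB and RARG were not called. Because this contrast chose the genes, nothing is read from these counts. Without FT_1 the fit called 4215 of 13765 genes higher (30.6%) and 4337 lower (31.5%), 62.1% together, and all 9 retinoid genes were among the called ones, 6 higher and 3 lower. The overall counts fell to 1516 and 1531 without WT_1, to 1613 and 1570 without WT_2 and to 1796 and 1741 without WT_3. RBP4 was not called when FT_2, FT_3, WT_1, WT_2 or WT_3 was left out.

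The balance of calls depended on the scaling between libraries. Of all called genes, 51.6% were higher in FT cells with the scaling used here, and 37.6% (2049 higher, 3394 lower) when libraries were scaled by their totals alone. The median log2 fold change of all genes was 0.03 with the scaling used here and -0.12 with totals alone, and fold changes of single genes shift with it. Among the retinoid genes the median was 0.64 over the 8 that were tested and 0.72 over 9 without FT_1.

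The ranges of FT and WT cells were separate in 5 of the 9 retinoid genes, against 58.7% of all tested genes. All FT libraries lay above all WT libraries in CRABP1, ALDH1A1 and RARA (21.8% of all tested genes), and below them in RBP4 and CYP26B1 (36.9%). In CRABP2, RARB and RARG, FT_1 lay on one side of all WT libraries and both other FT libraries on the other side, a pattern looked for after the values were seen and found in 12.0% of all tested genes. FT_1 was the highest of the 6 libraries in 3 of the retinoid genes (27.1% of all tested genes) and the lowest in 3 (29.1%).

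**Figure D1:**
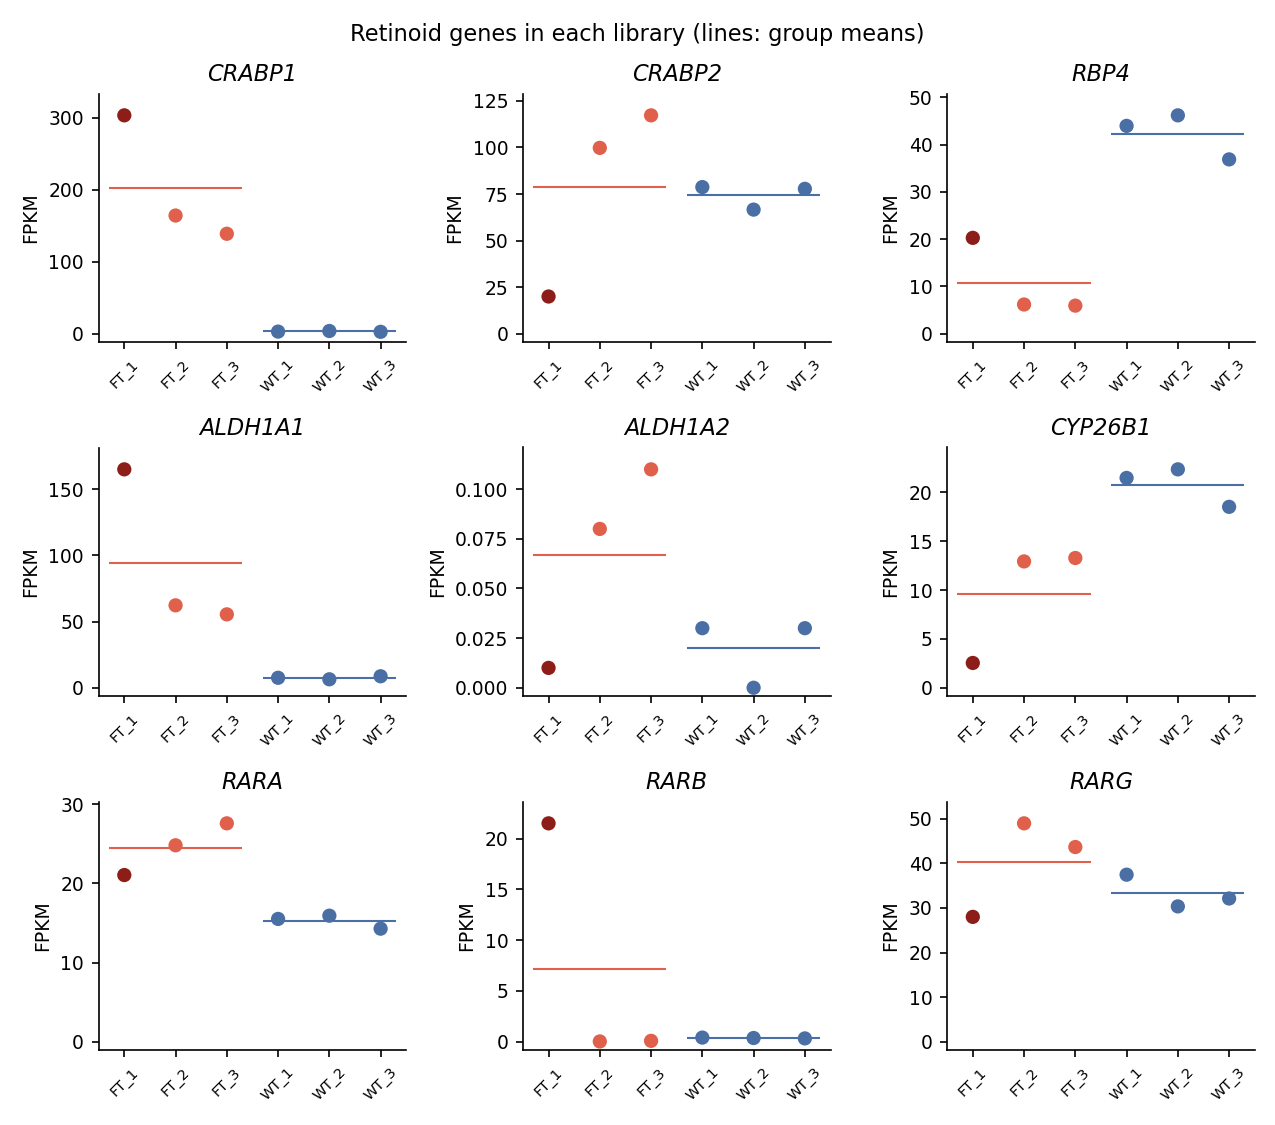
FPKM of the 9 retinoid genes in each library, with 1 panel per gene and its own linear axis from 0. Points are libraries (dark red FT_1, light red FT_2 and FT_3, blue WT) and horizontal lines are group means; the gap between groups is widest in CRABP1, and FT_1 alone sets the FT mean of RARB.

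CRABP1 (ENSBTAG00000012909, chr21:30733397-30740592, plus strand, in the authors' table, whose cattle build is not given in the sources used here, as for all positions that follow) encodes a small cytoplasmic protein that holds retinoic acid. Its FPKM was 304, 164 and 139 in FT_1, FT_2 and FT_3, and 3.01, 3.84 and 2.69 in WT_1, WT_2 and WT_3. Every FT library was far above every WT library, with FT_1 the highest. FT cells averaged 202 ± 88.6 FPKM (SD, n = 3) and WT cells 3.18 ± 0.594, a ratio of 63.6, or 47.7 without FT_1. The log2 fold change of FT over WT cells (log2FC) was 6.14, the 67th highest of 13482, with a standard error (SE) of 0.31. Without FT_1 it was 5.75 (SE 0.13). By FPKM CRABP1 ranked 206, 332 and 396 among 17663 genes in FT cells and between 8662 and 9574 in WT cells.

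CRABP2 (ENSBTAG00000005716, chr3:14124443-14130828, plus strand), whose protein passes retinoic acid on to the receptors, had an FPKM of 19.99, 99.8 and 117 in FT_1, FT_2 and FT_3. In WT_1, WT_2 and WT_3 it was 78.7, 66.6 and 77.8. FT_1 was below all WT libraries and the other FT libraries were above them, so the groups overlapped. Its log2FC was 0.26 (SE 0.60), and 0.72 (0.10) without FT_1. Its sign over all 6 libraries depended on the fit, since limma on log2(FPKM + 1) gave -0.25, and it was also negative without FT_3 (-0.15).

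The makeup of the CRABP pair was compared within each library, where scaling plays no part. The ratio of CRABP1 to CRABP2 FPKM was 15.2, 1.65 and 1.19 in FT_1, FT_2 and FT_3, and 0.0382, 0.0576 and 0.0346 in WT_1, WT_2 and WT_3. CRABP1 was thus the more abundant of the pair in each FT library and the less abundant in each WT library. Their summed FPKM was 324, 264 and 256 in FT cells and 81.7, 70.5 and 80.5 in WT cells.

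RBP4 (ENSBTAG00000000442, chr26:14896080-14903110, minus strand) encodes the secreted carrier of retinol. Its FPKM was 20.3, 6.19 and 5.95 in FT_1, FT_2 and FT_3, and 44.0, 46.2 and 36.9 in WT_1, WT_2 and WT_3. All FT libraries were below all WT libraries, with FT_1 nearest to them. Its log2FC was -1.82 (SE 0.49), and -2.63 (0.10) without FT_1. The WT mean was 3.92 times the FT mean, and 6.98 times the mean of FT_2 and FT_3.

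ALDH1A1 (ENSBTAG00000008103, chr8:49053228-49106706, minus strand) encodes a retinal dehydrogenase, which carries out the last step to retinoic acid. Its FPKM was 165, 62.2 and 55.4 in FT_1, FT_2 and FT_3, and 7.53, 6.39 and 8.68 in WT_1, WT_2 and WT_3. Each FT library was above each WT library, and FT_1 was well above the other FT libraries. The mean FPKM of FT cells was 94.2 ± 61.4 (SD, n = 3) and that of WT cells 7.53 ± 1.15, a ratio of 12.5, or 7.81 without FT_1. Its log2FC was 3.79 (SE 0.43), and 3.13 (0.12) without FT_1.

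ALDH1A2 (ENSBTAG00000010119, chr10:52214465-52340304, plus strand) encodes the retinal dehydrogenase that serves the early embryo. It was near 0 in all 6 libraries, with counts of 4, 17 and 25 in FT_1, FT_2 and FT_3 and of 8, 0 and 8 in WT_1, WT_2 and WT_3. Its FPKM was at most 0.11, and it did not pass the filter on low counts when all libraries were used. Without FT_1 the gene passed the filter, and its log2FC was 2.32 (SE 0.94).

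CYP26B1 (ENSBTAG00000012212, chr11:12376837-12396521, plus strand) encodes a cytochrome P450 that breaks down retinoic acid. Its FPKM was 2.54, 12.9 and 13.3 in FT_1, FT_2 and FT_3, and 21.5, 22.4 and 18.5 in WT_1, WT_2 and WT_3. All FT libraries were below all WT libraries, and FT_1 was by far the lowest. Its log2FC was -0.95 (SE 0.58), and -0.49 (0.09) without FT_1, so the distance between the groups was smaller without this library.

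Synthesis and degradation were also set against each other within a library, in a ratio chosen after the values were seen. The summed FPKM of ALDH1A1, ALDH1A2 and ALDH1A3, the related dehydrogenase gene, was 66.3, 5.46 and 4.86 times that of CYP26B1 in FT_1, FT_2 and FT_3. In WT_1, WT_2 and WT_3 the ratio was 0.846, 0.747 and 1.0. Each FT library was above each WT library, at a similar height in FT_2 and FT_3. ALDH1A1 made up 97.9%, 88.1% and 85.8% of the summed ALDH1A FPKM in FT cells and 41.4%, 38.2% and 46.8% in WT cells, where ALDH1A3 gave nearly all the rest. These are RNA levels, and neither enzyme activity nor retinoic acid was measured here.

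RARA (ENSBTAG00000012500, chr19:40559946-40595285, plus strand) encodes the receptor that is made in most tissues. Its FPKM was 21.1, 24.8 and 27.6 in FT_1, FT_2 and FT_3, and 15.5, 15.9 and 14.3 in WT_1, WT_2 and WT_3. All FT libraries were above all WT libraries by a modest margin, and FT_1 was the lowest of the FT libraries. Its log2FC was 0.85 (SE 0.13), and 0.95 (0.08) without FT_1.

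RARB (ENSBTAG00000011518, chr27:40197883-40381619, minus strand) encodes the receptor whose own gene is a classical retinoic acid target. Its FPKM was 21.5, 0.03 and 0.09 in FT_1, FT_2 and FT_3, and 0.41, 0.37 and 0.33 in WT_1, WT_2 and WT_3. FT_1 was far above every other library, and FT_2 and FT_3 were below every WT library, on counts of 3 and 8 against 43, 29 and 28. The log2FC of 4.38 (SE 1.94) therefore rested on FT_1 alone, and it turned to -2.23 (0.68) without it, while limma on log2(FPKM + 1) gave 1.099 with all libraries.

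RARG (ENSBTAG00000007592, chr5:26774193-26794835, plus strand) encodes the receptor that is prominent in skin and skeletal mesenchyme. Its FPKM was 28.0, 49.0 and 43.7 in FT_1, FT_2 and FT_3, and 37.5, 30.4 and 32.1 in WT_1, WT_2 and WT_3. FT_1 was the lowest of all 6 libraries and the other FT libraries were the highest, so the groups overlapped. Its log2FC was 0.43 (SE 0.23), and 0.64 (0.09) without FT_1.

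The receptors were also compared as shares of their summed FPKM in each library. RARG gave the largest share everywhere, at 39.7%, 66.3% and 61.2% in FT_1, FT_2 and FT_3 and 70.2%, 65.1% and 68.7% in WT_1, WT_2 and WT_3. RARA followed in FT_2, FT_3 and the WT libraries, and gave 29.1% to 38.7% of the sum over the 6 libraries. RARB took 30.5% of the sum in FT_1, at most 0.126% in FT_2 and FT_3, and 0.706% to 0.793% in WT cells. Despite this shift in makeup, the summed FPKM of the 3 receptors was 70.6, 73.8 and 71.3 in FT_1, FT_2 and FT_3, which was close to even. It was 53.4, 46.6 and 46.7 in WT cells, below each FT library.

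**Figure D2:**
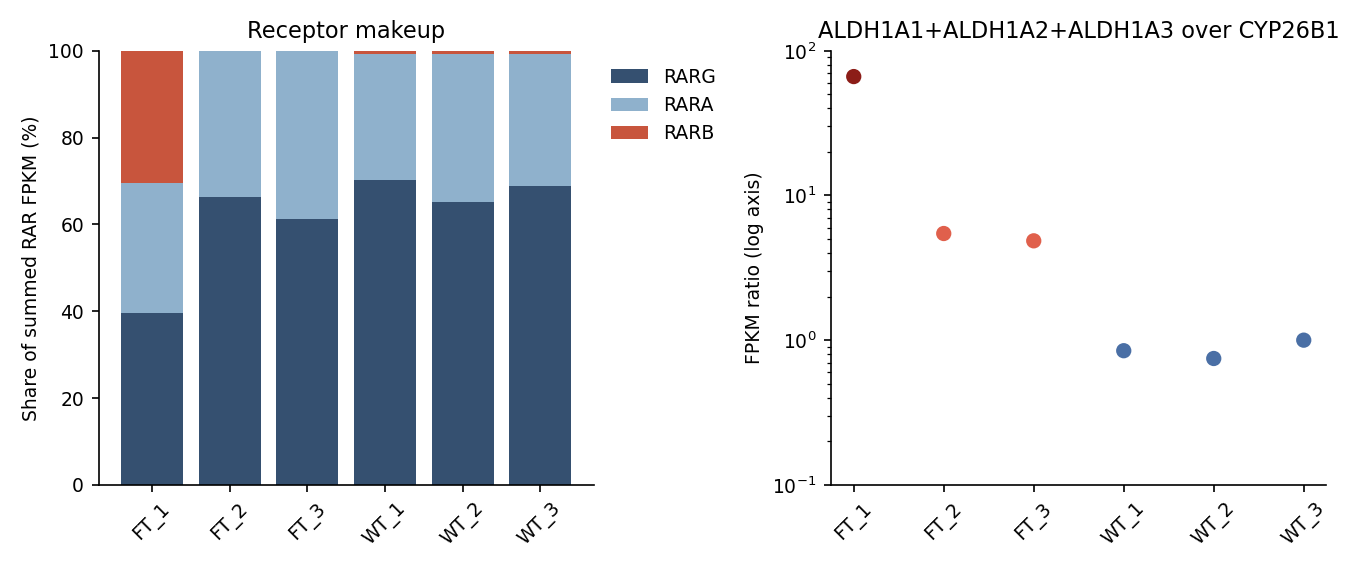
Left, stacked bars give the share of the summed RARA, RARB and RARG FPKM (percent) taken by each receptor in each library, and RARB is visible as a large share only in FT_1 (30.5%). Right, points on a log axis give the summed FPKM of ALDH1A1, ALDH1A2 and ALDH1A3 over that of CYP26B1, from 0.747 to 1.0 in WT cells and from 4.86 to 66.3 in FT cells.

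In WT cells the order of median FPKM was CRABP2, RBP4, RARG, CYP26B1, RARA, ALDH1A1, CRABP1, RARB and ALDH1A2. RBP4 and RARG overlapped in their ranges over the WT libraries, and no other neighbours in that order did. In FT cells the order of median FPKM was CRABP1, CRABP2, ALDH1A1, RARG, RARA, CYP26B1, RBP4, RARB and ALDH1A2. There the ranges of CRABP2 and ALDH1A1 overlapped, as did those of CYP26B1 and RBP4, of RBP4 and RARB, and of RARB and ALDH1A2. CRABP1 moved from a low place among the 9 genes in WT cells to the top in FT cells.

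**Figure D3:**
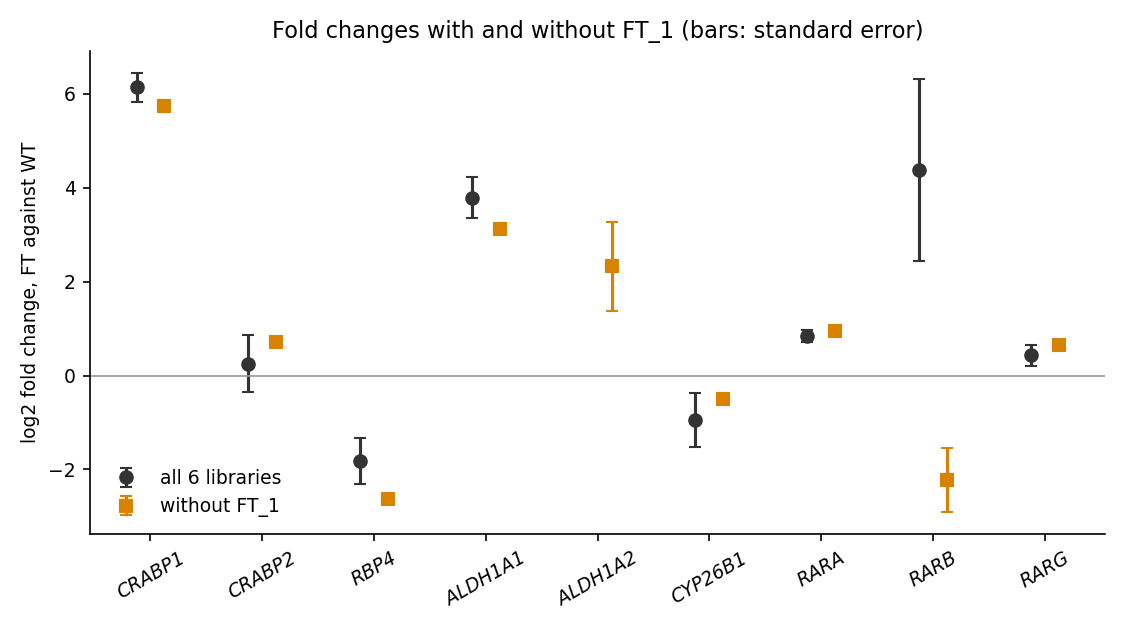
Log2 fold change of FT against WT cells for each retinoid gene from edgeR, with all 6 libraries (black circles) and without FT_1 (orange squares); bars are standard errors. CRABP1 is near 6 either way, RARB changes sign from 4.38 to -2.23, and ALDH1A2 has no value with all libraries because it did not pass the filter on low counts.

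Other genes of the pathway were tested with edgeR's quasi-likelihood test, adjusted over all 13482 genes. Of 71 listed genes for uptake, conversion, degradation, nuclear partners and coregulators, 56 had a row and 46 were tested. In FT cells 12 were called higher (26.1%), 6 lower (13.0%) and 28 were not called, with a median log2FC of 0.32. All tested genes stood at 20.1% higher and 18.9% lower, with a median of 0.03. Without FT_1, 24 were called higher (52.2%) and 9 lower (19.6%), with a median of 0.27, beside 30.6%, 31.5% and -0.02 for all genes. The number called higher was 8 without WT_1, 9 without WT_2, 10 without WT_3 and 13 without FT_2 or FT_3.

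Genes for uptake, storage and serum transport of retinol included 7 tested genes, of which 1 rose and 1 fell (14.3% each, beside 20.1% and 18.9% of all genes), and 3 rose and 1 fell without FT_1 (42.9% and 14.3%, beside 30.6% and 31.5%). The fall was in TTR, which encodes transthyretin, the partner of RBP4 in blood. Its FPKM was 5.71, 22.2 and 19.8 in FT_1, FT_2 and FT_3 and 127, 113 and 135 in WT_1, WT_2 and WT_3. Its log2FC was -2.81 (SE 0.48, edgeR adjusted p = 0.00831), lower in 3 of 3 FT libraries, and -2.41 (adjusted p = 7.58e-08) without FT_1. TTR was lowest in FT_1, where RBP4 was the highest of the FT libraries, so the ratio of RBP4 to TTR FPKM was 3.55 in FT_1 and between 0.274 and 0.407 in the other 5. The rise was in DGAT1, named after its values were seen, whose enzyme can esterify retinol (log2FC 0.78, adjusted p = 0.0102, and 0.67 without FT_1). STRA6, the receptor for RBP4, had 297 counts in FT_1, 4 in WT_2 and 0 in the other 4 libraries, and was not tested.

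Among 11 tested oxidoreductases of retinol and retinal, 4 fell (36.4%, beside 18.9% of all genes). By edgeR 0 were called higher (20.1% of all genes), 1 had a higher level at an unadjusted p under 0.05, and DESeq2 and limma each called 0 higher. Without FT_1 edgeR called 1 higher (9.09%, beside 30.6%) and 5 lower (45.5%, beside 31.5%). DHRS9, a retinol dehydrogenase gene, had an FPKM of 0.13, 0.68 and 0.48 in FT cells and 5.84, 7.16 and 5.36 in WT cells. Its log2FC was -3.65 (SE 0.55, edgeR adjusted p = 0.00577), lower in 3 of 3 FT libraries, and -3.22 without FT_1. The other falls, named after their values were seen, were in ADH5 (-0.79, adjusted p = 0.00332), DHRS4 (-0.64, adjusted p = 0.00373) and RDH13 (-0.97, adjusted p = 0.0255), with log2FC values of -0.90, -0.62 and -1.10 without FT_1. RDH13 was no longer called without FT_2, FT_3, WT_1 or WT_2 (adjusted p from 0.0578 to 0.0942).

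The main enzymes that pass retinol and retinal back and forth set FT_1 apart instead. RDH10, which oxidises retinol, had 36.2, 7.49 and 7.14 FPKM in FT_1, FT_2 and FT_3, and 8.78, 9.12 and 8.74 in WT cells. Its log2FC was 1.08 (SE 0.64, edgeR adjusted p = 0.235) with all libraries and -0.11 (adjusted p = 0.387) without FT_1. DHRS3, which reduces retinal and is itself a retinoic acid target, had 37.0, 2.56 and 3.04 FPKM in FT cells and 1.47, 1.37 and 1.71 in WT cells. All FT libraries were above all WT libraries, yet the log2FC of 3.36 (SE 1.04) did not pass the test (adjusted p = 0.0588). It did pass without FT_1 (1.06, adjusted p = 7.63e-04), without FT_2 (adjusted p = 0.0399) and without FT_3 (adjusted p = 0.0467). ALDH1A3 had 3.50, 8.33 and 9.06 FPKM in FT cells and 9.83 to 10.6 in WT cells, and its log2FC of -0.39 (adjusted p = 0.414) did not pass, nor did -0.07 without FT_1. Of the degradation genes apart from CYP26B1, CYP26A1 and CYP26C1 were not analysed here, and CYP2S1 had too few counts for a test.

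Among 13 tested RXR genes and nuclear receptor partners, 5 rose (38.5%, beside 20.1% of all genes), and 10 without FT_1 (76.9%, beside 30.6%). None was called lower by edgeR, and 0 fell at an unadjusted p under 0.05 or by DESeq2 and limma, whereas 1 fell without FT_1. The number called higher was 3 of 13 in limma and 5 of 15 in DESeq2. RXRA, an obligate partner of the RARs, had 11.5, 17.0 and 16.5 FPKM in FT cells and 14.1, 13.6 and 15.0 in WT cells, at a log2FC of 0.24 (adjusted p = 0.309), or 0.40 (adjusted p = 6.71e-04) without FT_1. RXRB had 15.3, 12.2 and 12.6 FPKM in FT cells and 12.4 to 15.0 in WT cells. Its log2FC of 0.13 (adjusted p = 0.434), or 0.03 without FT_1, did not pass. The value took the other sign with totals as the only scaling (-0.02) and in limma (-0.03). The summed FPKM of RXRA and RXRB was 26.8 to 29.2 in FT cells and 26.0 to 29.95 in WT cells, which overlapped, unlike the sum of the RARs. PPARD, a partner that receives ligands from FABP5, had 10.9, 12.4 and 12.7 FPKM in FT cells and 7.74, 6.64 and 7.32 in WT cells, and rose by a log2FC of 0.89 (SE 0.11, adjusted p = 0.00225), or 0.96 without FT_1.

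The other rises among the partners, named after their values were seen, were in VDR (0.91, adjusted p = 0.0252), NR2C2 (0.68, adjusted p = 0.0104), NR1H2 (0.48, adjusted p = 0.0035) and NR1H3 (0.39, adjusted p = 0.0387). All 4 encode nuclear receptors, VDR that of vitamin D and the NR1H genes those of oxysterols. Without FT_1 their log2FC values were 0.63, 0.65, 0.47 and 0.46, in the same order. The call of NR1H3 was lost when any of FT_2, FT_3, WT_1, WT_2 or WT_3 was left out (adjusted p from 0.0933 to 0.126) as well as with totals as the only scaling (0.135), with no filter on low counts (0.0558) and in limma (0.154). That of VDR was lost without WT_1, WT_2 or WT_3 (adjusted p from 0.0588 to 0.0988) and in limma on log2(FPKM + 1) (0.0509, or 0.0737 with no filter), and kept in limma on log2(FPKM + 0.1) (0.0493).

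Of 15 coregulators that switch retinoid receptors on or off, all tested, 6 rose and 1 fell (6.67%), beside 20.1% and 18.9% of all genes. Without FT_1 10 rose (66.7%) and 2 fell (13.3%), beside 30.6% and 31.5%. EP300, a histone acetyltransferase and coactivator, had 14.8, 16.1 and 15.9 FPKM in FT cells and 8.34, 7.46 and 9.05 in WT cells, and rose by a log2FC of 1.07 (SE 0.10, edgeR adjusted p = 0.00122), or 1.12 without FT_1. EP300 was higher in 3 of 3 FT libraries. The fall, named after its values were seen, was in the histone deacetylase gene HDAC3 (-0.32, adjusted p = 0.0152, and -0.36 without FT_1), and it was not called when FT_2, FT_3, WT_1, WT_2 or WT_3 was left out (adjusted p from 0.0542 to 0.0642).

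Textbook targets of retinoic acid moved in both directions. Of 27 listed, 24 had a row and 19 were tested; 4 rose (21.1%), 2 fell (10.5%) and 13 were not called, with a median log2FC of 0.06 beside 0.03 for all genes. Without FT_1, 8 rose and 5 fell, with a median of 0.64 beside -0.02. These shares stand beside 20.1% higher and 18.9% lower among all genes, or 30.6% and 31.5% without FT_1.

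The targets that rose include a pair of orphan nuclear receptor genes. NR2F1 had 28.3, 76.4 and 73.6 FPKM in FT cells and 13.5, 15.6 and 16.9 in WT cells, at a log2FC of 2.12 (SE 0.38, edgeR adjusted p = 0.00897). NR2F2 had 8.18, 5.81 and 4.64 FPKM in FT cells and 1.94, 2.27 and 2.21 in WT cells, at a log2FC of 1.69 (SE 0.21, adjusted p = 0.00274). RARRES2, which encodes the secreted protein chemerin, had 21.5, 17.4 and 15.0 FPKM in FT cells and 6.56, 6.18 and 9.10 in WT cells, at a log2FC of 1.46 (SE 0.20, adjusted p = 0.00359). In all 3 genes every FT library was above every WT library, and without FT_1 the log2FC was 2.46 for NR2F1, 1.46 for NR2F2 and 1.32 for RARRES2. The fourth, FOXA1, was low, with 83, 23 and 53 counts in FT cells and 0, 0 and 6 in WT cells (adjusted p = 0.0307, and 0.00497 without FT_1). Its call was lost without FT_2, FT_3, WT_1 or WT_2 (adjusted p from 0.0524 to 0.1005) and with no filter on low counts (0.0552).

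Both falls among the targets held when any library was left out. IGFBP6, a binding protein of insulin-like growth factors, had 35.9, 37.6 and 32.9 FPKM in FT cells and 125, 132 and 136 in WT cells, at a log2FC of -1.73 (SE 0.08, edgeR adjusted p = 5.23e-04). RET, a receptor tyrosine kinase gene, was low, at 0.15 to 0.25 FPKM in FT cells and 0.62 to 0.66 in WT cells, at a log2FC of -1.41 (SE 0.27, adjusted p = 0.00981). Both were lower in 3 of 3 FT libraries, and without FT_1 their log2FC values were -1.72 for IGFBP6 and -1.51 for RET.

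Other targets followed FT_1 or did not pass the test. TGM2, a transglutaminase gene, had 994, 43 and 49 counts in FT_1, FT_2 and FT_3, and 45, 0 and 14 in WT_1, WT_2 and WT_3 (adjusted p = 0.0908, and 0.140 without FT_1). RARRES1, a retinoid response gene named after its values were seen, had 0.61, 65.6 and 58.8 FPKM in FT_1, FT_2 and FT_3, and 24.5, 28.6 and 26.8 in WT cells. FT_1 was the lowest and the other FT libraries the highest, as in CRABP2. The log2FC of RARRES1 was 0.82 (adjusted p = 0.633), of the other sign in limma (-0.57), and 1.39 (adjusted p = 8.69e-07) without FT_1. The homeobox gene MEIS1 was not called (-0.13, adjusted p = 0.560) but was lower without FT_1 (-0.34, adjusted p = 0.00246). MEIS2 was not called either (0.03, adjusted p = 0.949), took the other sign with totals as the only scaling (-0.12), and was higher without FT_1 (0.37, adjusted p = 0.00141).

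The CRABP genes belong to the family of intracellular lipid binding proteins. Of 14 listed, 7 had a row and 5 were tested, and 3 fell (60.0%, beside 18.9% of all genes), or 4 without FT_1 (80.0%, beside 31.5%). By edgeR 0 were called higher, also at an unadjusted p under 0.05 and by DESeq2 and limma. FABP5, which carries fatty acids and can carry retinoic acid, had 9.45, 9.90 and 10.6 FPKM in FT cells and 40.4, 35.8 and 44.2 in WT cells. Its log2FC was -1.85 (SE 0.11, edgeR adjusted p = 5.23e-04), lower in 3 of 3 FT libraries and with little spread within either group, and -1.80 without FT_1. FABP4, known from adipocytes, had 0.08, 4.67 and 5.95 FPKM in FT cells and 140, 128 and 143 in WT cells, at a log2FC of -5.10 (SE 1.0, adjusted p = 0.0176), or -4.51 without FT_1. Its adjusted p was 0.0536 to 0.0594 when FT_2, WT_1, WT_2 or WT_3 was left out. The adipocyte marker CIDEC, named after its values were seen, also fell (edgeR adjusted p = 0.00903, and 3.35e-06 without FT_1), and LEP was higher in FT_2 and FT_3. FABP7 had 0.07, 0.70 and 0.38 FPKM in FT cells and 2.69, 2.3 and 2.1 in WT cells (log2FC -2.42, adjusted p = 0.0464, and -1.92 without FT_1). Its call was lost without FT_3, WT_1, WT_2 or WT_3 (adjusted p from 0.108 to 0.133) and with no filter on low counts (0.0624). FABP3, the fourth to be called without FT_1 (-0.995), missed the threshold with all libraries (-1.39, adjusted p = 0.0624), passed it with totals as the only scaling (0.0424) and in limma (0.0257), and was named after its values were seen.

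**Figure D4:**
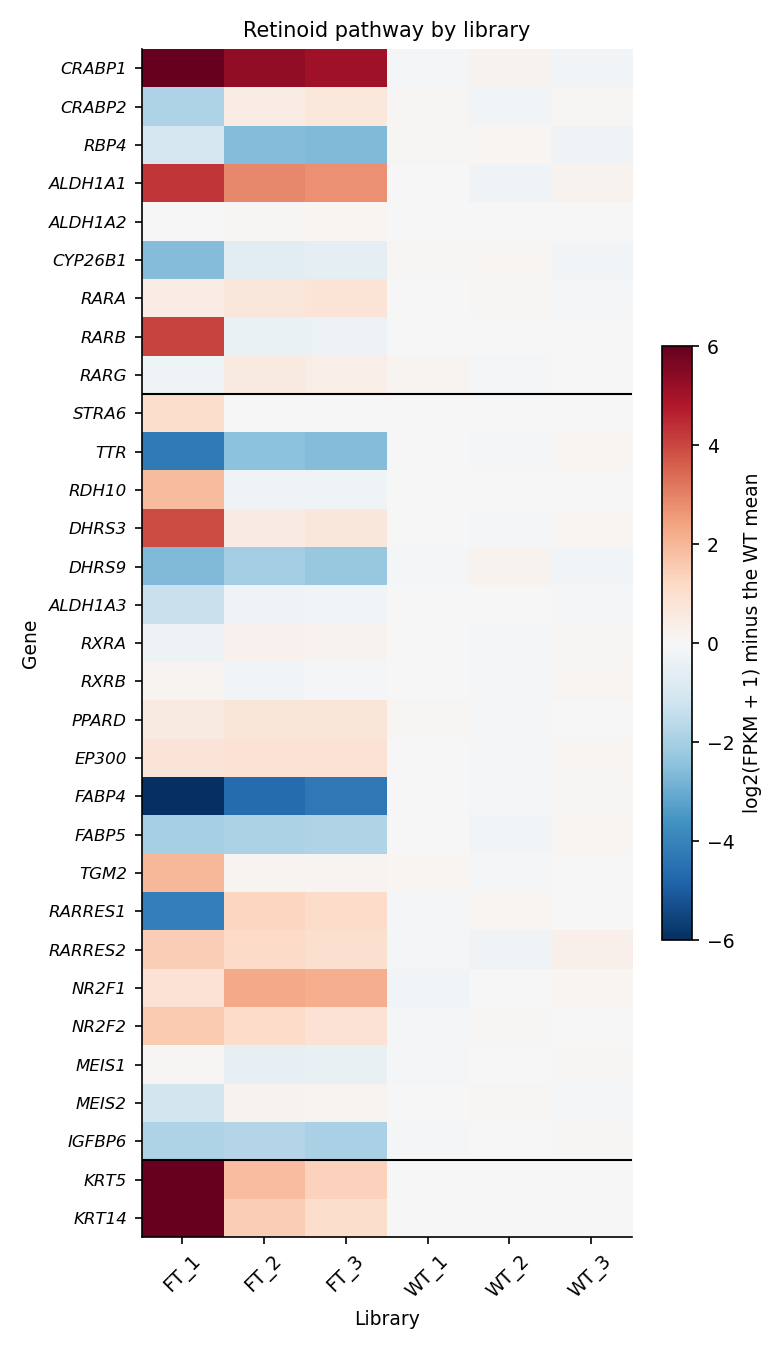
Rows are the 9 retinoid genes (top block), other named genes of the pathway (middle) and the keratin genes KRT5 and KRT14 (bottom); columns are libraries, and color gives log2(FPKM + 1) minus the WT mean of that gene, with values past the ends of the scale drawn in the end colors. FT_1 differs in color from FT_2 and FT_3 in CRABP2, RARB, RDH10, DHRS3, RARRES1 and the keratins, while CRABP1, ALDH1A1, RBP4, TTR, FABP4 and FABP5 differ from WT in the same direction in all FT libraries.

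Across the 65 tested genes of these lists, FT_1 was the highest of the 6 libraries in 19 and the lowest in 22. Among all tested genes the shares were 27.1% and 29.1%. The epithelial markers were highest in FT_1 in 7 of 7 cases, and so were RARB, STRA6, RDH10, DHRS3 and TGM2, picked from the genes highest there. Genes lowest in FT_1 included CRABP2, CYP26B1, RARG and RARRES1. In 5 of the 7 epithelial markers all FT libraries also lay above all WT libraries, as in CRABP1, ALDH1A1, DHRS3 and TGM2, which were highest in FT_1 too. RARB and RDH10 were instead below all WT libraries in FT_2 and FT_3. The part of the epithelial markers in the values of these genes was not tested.

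Genes whose pattern was most like that of the 3 retinoid genes with the largest fold changes were sought among 11947 genes, by the root mean square difference of mean-centred log2 counts, scaled to library size, over the 6 libraries. For CRABP1 they were RUNX3 (0.467), IGFBP2 (0.509) and ANO1 (0.542). RUNX3 was low, at 1.52, 0.96 and 1.16 FPKM in FT cells and listed at 0 in WT cells. ANO1 had 14.1, 2.58 and 2.41 FPKM in FT cells and 0.04 to 0.08 in WT cells. Distances of genes near 0 in some libraries depend on the prior count of 2 added before logs were taken. IGFBP2 had 1052, 1310 and 1167 FPKM in FT cells and 24.5 to 29.4 in WT cells, so it shared the gap between groups, whereas it lacked the high value of FT_1. For ALDH1A1 they were TGM3 (0.197), FN1 (0.203) and TFAP2C (0.204), a closer match. FN1, the fibronectin gene, had 7499, 1780 and 1831 FPKM in FT cells and 239 to 304 in WT cells, so that FT_1 was the highest library in both genes. For RARB they were PLCH2 (0.458), ALS2CL (0.508) and CHN2 (0.515), and PLCH2 had 13.7 FPKM in FT_1 and 0.09 to 0.30 in the other 5 libraries. With 6 libraries in 2 groups many genes share such patterns, and these values are a description.

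The 9 genes lay on 9 chromosomes, and none overlapped another gene of the table. The nearest tested genes on either side, looked up after the values were seen, numbered 18, of which edgeR called 2 higher (11.1%, beside 20.1% of all genes) and 7 lower (38.9%, beside 18.9%) in FT cells. Without FT_1 it called 5 higher and 9 lower, beside 30.6% and 31.5% of all genes. Beside CRABP1, WDR61 lay 42.6 kb away and fell (log2FC -1.15, adjusted p = 0.00208, and -1.06 without FT_1). IREB2, 87.9 kb away on the other side, was not called (0.07, adjusted p = 0.602, and 0.15 without FT_1). With totals as the only scaling IREB2 was at -0.08 (adjusted p = 0.553). The neighbours of ALDH1A1 were farther off, and ZFAND5 at 453 kb (-0.69, adjusted p = 0.00358) and ANXA1 at 215 kb (-1.41, adjusted p = 6.88e-04) both fell, with ANXA1 at 254, 268 and 257 FPKM in FT cells and 769, 830 and 718 in WT cells. Without FT_1 the values were -0.66 for ZFAND5 and -1.39 for ANXA1. Beside RARB, TOP2B lay 1.15 kb away and had 30.8, 36.7 and 34.5 FPKM in FT cells and 50.4, 51.0 and 44.7 in WT cells, without the high value of FT_1 (-0.36, adjusted p = 0.0422, and -0.28 without FT_1). The call of TOP2B was lost when FT_2, FT_3, WT_1, WT_2 or WT_3 was left out (adjusted p from 0.0572 to 0.140) and with no filter on low counts (0.0525). On the other side of RARB, THRB, 1080 kb away, was not called (0.41, adjusted p = 0.451) but was higher without FT_1 (0.76, adjusted p = 7.93e-04).

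Beside other retinoid genes some neighbours were called in the direction of the gene's own log2FC and some in the other. CEP55, 50.7 kb from RBP4, had 2.62, 4.60 and 4.01 FPKM in FT cells and 14.1, 16.9 and 12.8 in WT cells, at a log2FC of -1.80 (SE 0.23, edgeR adjusted p = 0.00301), or -1.59 without FT_1. FT_1 was the lowest FT library in CEP55 and the highest in RBP4. NES, the nestin gene, lay 29.1 kb from CRABP2 and had 9.54, 53.5 and 54.9 FPKM in FT_1, FT_2 and FT_3, and 19.4, 22.2 and 17.9 in WT_1, WT_2 and WT_3. As in CRABP2, FT_1 was below all WT libraries and the other FT libraries were above them, and NES was not called with all libraries (1.16, adjusted p = 0.187) but was called without FT_1 (1.62, adjusted p = 3.46e-07). ISG20L2, 12.8 kb away on the other side of CRABP2, rose (0.55, adjusted p = 0.00329, and 0.54 without FT_1). MFSD5, 14.0 kb from RARG, rose (0.71, adjusted p = 0.00808, and 0.82 without FT_1), with all FT libraries above all WT libraries, unlike RARG, while ITGB7, 1.90 kb away on its other side, fell (-1.18, adjusted p = 0.0127, and -1.14 without FT_1), as did TOP2A, 32.0 kb from RARA (-1.28, adjusted p = 0.0163, and -1.02 without FT_1). The call of ITGB7 was lost without WT_2 or WT_3 (adjusted p = 0.0505 and 0.0531), and that of TOP2A without WT_1, WT_2 or WT_3 (adjusted p from 0.0503 to 0.0643).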

How the data were processed

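The authors sequenced poly(A) RNA of 6 bEF cultures and deposited, for each gene and library, a raw count and an FPKM value; the count is not normalised and the FPKM is scaled by gene length and library total. The submitters' processing notes name Bowtie 0.12.2, HISAT2 2.0, StringTie 1.3.0 and mm8, a mouse build, although the identifiers are those of cattle; the cattle build is not given in the sources used here. How reads of overlapping or near-identical genes were counted, and whether strand was used, is not stated. The sources name different sequencers.

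Samples were grouped by their titles. Counts were fitted with edgeR 4.0.16 (R 4.3.3; filterByExpr with a minimum count of 10, TMM scaling, quasi-likelihood test, Benjamini-Hochberg adjustment over all genes tested, called under 0.05). Standard errors come from this fit. Alternatives used DESeq2 1.42.0, limma 3.58.1 on log2(FPKM + 1) or log2(FPKM + 0.1) with a mean FPKM of at least 0.5 or no filter, other scalings and call rules, no filter on counts, a replicate block and leaving out each library. The fits of the 3 tools were also run on simulated counts with known changes, but the outcome is not given here and no result rests on it. Replicates were separate fetuses, and no pair of libraries of the same group was alike within sampling noise (mean chi-square per gene at least 11.7).

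The members, the 7 pathway lists and the 10 marker lists were chosen with earlier results of these data known. Named genes were all 9 members, a set of pathway genes named whatever their values, up to 4 rises and 4 falls per list with the smallest adjusted p among called genes with an absolute log2 fold change of at least 1, the nearest genes by likeness and the most abundant marker of each list. Of the genes named by this rule, 2 are not reported here. Others are marked as named after their values were seen. A search for receptor motifs in promoters was planned and not run, because no genome was used here.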

Additional observations from a re-analysis of the deposited data

How the results depend on the processing

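The counts of calls moved most with the fold rule and with single libraries. With an absolute log2 fold change over 1 added, 1131 genes were higher and 1019 lower in FT cells (1378 and 1208 with that fold and an unadjusted p under 0.05), and 2 other retinoid genes were higher and 2 lower (4 and 3 with the unadjusted p). Leaving out each library in turn gave 1516 to 4215 genes higher and 1531 to 4337 lower, 3 to 6 members higher and 0 to 3 lower, 8 to 24 other retinoid genes higher and 4 to 9 lower, and 3 to 8 retinoic acid targets higher and 2 to 5 lower, with the highest values without FT_1. limma with no filter called 1744 genes higher, and limma with either pseudocount called 1 target lower. The direction of RDH10 turned without FT_1, over a range of -0.11 to 1.43 with each library left out. RXRB was -0.0233 with totals alone and -0.0328, -0.0351 and -0.0328 in limma with pseudocounts 1 and 0.1 and with no filter. For MEIS2 these 4 values were -0.12, -0.24, -0.26 and -0.24, and it was -0.19, -0.14 and -0.01 without FT_2, FT_3 and WT_3, and up to 0.37 without FT_1. RARRES1 was -0.57, -0.93 and -0.57 in the 3 limma fits, and IREB2 was -0.0785 with totals alone and -0.0795, -0.0869 and -0.0795 in limma. The cause was not tested. Of 654 comparisons of a named gene other than the 9 retinoid genes with an alternative, 564 kept direction and side of the threshold, 54 lost the call, 15 gained it and 21 turned. Of 112 such comparisons of the retinoid genes, 100 stayed within the replicate spread and 12 moved further. That spread was the pooled SD within groups over all libraries, FT_1 among them. A shift inside it can therefore still change the sign or the call, as all those of CRABP2 were inside it. Among these 112 the sign turned in 6 (CRABP2 in 5 and RARB without FT_1), and with the sign kept, 5 lost the call (RBP4 without FT_2, FT_3, WT_1, WT_2 or WT_3) and 3 gained it (CRABP2, CYP26B1 and RARG without FT_1). Samples with the same number were different fetuses, and their deviations from the group means had correlations of -0.00111, -0.0200 and 0.0185. Because FT_1 stood far from FT_2 and FT_3, the deviations in FT cells mostly reflect FT_1. These correlations therefore cannot exclude a batch shared by libraries of the same number. With a replicate block 1838 genes were higher and 1741 lower, MEIS2 was -0.0888, RARRES1 -0.11, CRABP2 -0.0563 and RARB 0.0583. Among named genes the block ended the calls of FOXA1, FABP7, HDAC3, NR1H3 and TOP2B (adjusted p = 0.0622, 0.0885, 0.0629, 0.0968 and 0.0980) and changed no other. Groups of 3 libraries, 1 of which stood apart, limit all fold changes, and ALDH1A2, STRA6, FOXA1 and RARB in FT_2 and FT_3 rest on few counts. The search for promoter motifs was not run.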
